A study of Homo sapiens with 10 samples.

Results

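The genes described here encode the aminoacyl-tRNA synthetases of the cytosol and the mitochondria, the scaffold proteins AIMP1, AIMP2 and EEF1E1 and the tRNA exporter XPOT. They were chosen by name, as 39 genes, of which 36 were among the 14054 genes of the count table: 17 of 19 cytosolic synthetases, 15 of 16 mitochondrial synthetases, the 3 scaffold genes and XPOT. FARSB, VARS1 and IARS2 were not analysed here. RNA came from MRC5, a human lung fibroblast line, in 10 libraries. The 5 static libraries (static 1, 3, 5, 7 and 9) were from cells kept in medium that non-stretched A549 cells had conditioned, and the 5 stretch libraries (stretch 2, 4, 6, 8 and 10) from cells kept in medium from stretched A549 cells. A549 is a human lung adenocarcinoma line used as a model of alveolar epithelium. No library from cells in fresh medium was analysed here, so both groups carry the effect of A549 medium as such. The sample descriptions give 24 hours and the series design 6 hours of exposure. The series asks whether stretched epithelial cells act on fibroblasts through what they secrete, and the comparison was stretch minus static medium.

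Aminoacyl-tRNA synthetases join each amino acid to its tRNA and so supply the ribosome with charged tRNA. Cytosolic and mitochondrial translation mostly use separate enzymes from separate nuclear genes, whereas GARS1 and KARS1 serve both compartments from a single gene. In the cytosol several synthetases are held in the multisynthetase complex by AIMP1, AIMP2 and EEF1E1, and XPOT carries mature tRNA out of the nucleus. When amino acids run short, uncharged tRNA activates the kinase GCN2 and the transcription factor ATF4 is made, which binds the C/EBP-ATF response element in the promoters of many cytosolic synthetase genes and of amino acid synthesis genes.

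That element was looked for as TGATGNAA on both strands in RefSeq promoter windows (GRCh38.p14), each of 300 bases, from 250 before to 50 after an annotated transcript start. Windows were found for 34 of the 39 genes, and LARS1, VARS1, YARS1, AARS2 and VARS2 had none. The motif was present in 8 of the 34 (23.5%), against 4.46% of all 27305 genes with a window and 2.62% of the 8622 tested genes with one. By window rather than gene, it was in 8 of 46 (17.4%), against 3.62% of 35116. All 8 are shown because 7 are cytosolic synthetase genes. Each line gives 30 bases on the strand of the gene, 5′ to 3′, with the motif or its reverse complement in capitals.
AARS1: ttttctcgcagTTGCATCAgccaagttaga
CARS1: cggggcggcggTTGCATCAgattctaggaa
GARS1: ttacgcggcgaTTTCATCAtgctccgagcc
IARS1: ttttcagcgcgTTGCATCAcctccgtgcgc
MARS1: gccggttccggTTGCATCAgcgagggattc
NARS1: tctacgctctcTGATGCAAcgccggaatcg
TARS1: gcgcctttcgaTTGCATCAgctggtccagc
YARS2: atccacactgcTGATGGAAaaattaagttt

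The same 8 letters, TTGCATCA or its reverse complement TGATGCAA, stood in 6 of the cytosolic genes, while GARS1 and the mitochondrial YARS2 each had another base at the open position of the motif. The stretches lie at chr16:70289675-70289704 (AARS1, minus strand), chr11:3057407-3057436 (CARS1, minus), chr7:30594834-30594863 (GARS1, plus), chr9:92293692-92293721 (IARS1, minus), chr12:57488053-57488082 (MARS1, plus), chr18:57621804-57621833 (NARS1, minus), chr5:33440956-33440985 (TARS1, plus) and chr12:32756076-32756105 (YARS2, minus). With the first transcribed base counted as 0, the capitals began at -33 in GARS1, -13 in IARS1, -4 in MARS1, -2 in CARS1, 2 in TARS1 and 14 in NARS1, so these 6 lay close to a start. Those of AARS1 and YARS2 began at -187 and -197. SARS1, the gene with the largest difference between the groups, had no match in either of its windows. The SARS1 window of the first annotated start matched no GENCODE transcript of the gene, whereas its other window did. The 120 bases before that first start, at chr1:109213773-109213892 on the plus strand, are shown for comparison with the sites above.
SARS1: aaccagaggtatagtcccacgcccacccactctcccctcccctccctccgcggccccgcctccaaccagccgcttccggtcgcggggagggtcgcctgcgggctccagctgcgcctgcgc

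A match describes these letters in this window and is not a measured binding site. Among tested cytosolic synthetases with a window, the 7 with the motif had a median log2 fold change of -0.092 and all lay below 0. The 8 without it had a median of -0.15, with 6 below 0.

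Libraries held 4231653 to 8455073 counts, of which the 36 genes made up 0.322% to 0.394%. Levels are CPM, that is counts divided by the TMM-adjusted library size and put on a common scale. The kit reads a gene from a short amplified target, so levels of different genes were not ranked, and a ratio of paired genes was read only for how it differed between the groups. The 11 fibroblast markers summed to 17437 to 19277 CPM in static and 15787 to 19865 CPM in stretch libraries. Of 12 markers of A549 and lung epithelium, 7 were in the table, with sums of 36.2 to 48.1 and 41.9 to 52.0 CPM, and CDH1 among them was at 0 to 0.522 CPM. Their part in the results below was not tested.

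No gene passed the threshold in edgeR. Of the cytosolic synthetases, 14 of 17 had lower estimates with stretch medium, the seryl, tyrosyl and glycyl enzymes by the most, while the mitochondrial synthetases lay on both sides of 0. In 3 static libraries these genes stood on average above all stretch libraries: the mean log2 CPM of the 17 cytosolic genes, centred on each gene's mean, was 0.22, 0.24 and 0.094 in static 1, 3 and 7. In static 5 and 9 it was -0.067 and -0.10, inside the stretch range of -0.19 to -0.029. Of the 35 genes that had enough counts to be tested, 26 had a log2 fold change below 0 (74.3%, against 49.9% of all 10968 genes tested). The median was -0.085, against 0.00035 over all genes. In edgeR's quasi-likelihood test 0 of the 35, and 0% of all genes, passed an adjusted p of 0.05. At an unadjusted p under 0.05, 5 were lower and 1 was higher, or 14.3% and 2.86% of the 35, against 8.37% and 8.08% of all genes. With 1 library left out, the lower count ran from 4 to 7. It was 4 without static 7, where 6.26% of all genes were lower, and 7 without static 5, where 7.61% were. DESeq2 called SARS1 and GARS1, both lower (1.55% of the 9690 genes with an adjusted p in DESeq2 were called lower). By limma-voom none of the 35 was called (0.00912% of all genes). In bulk RNA, a lower level in each cell and fewer cells that express a gene cannot be told apart.

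**Figure D1:**
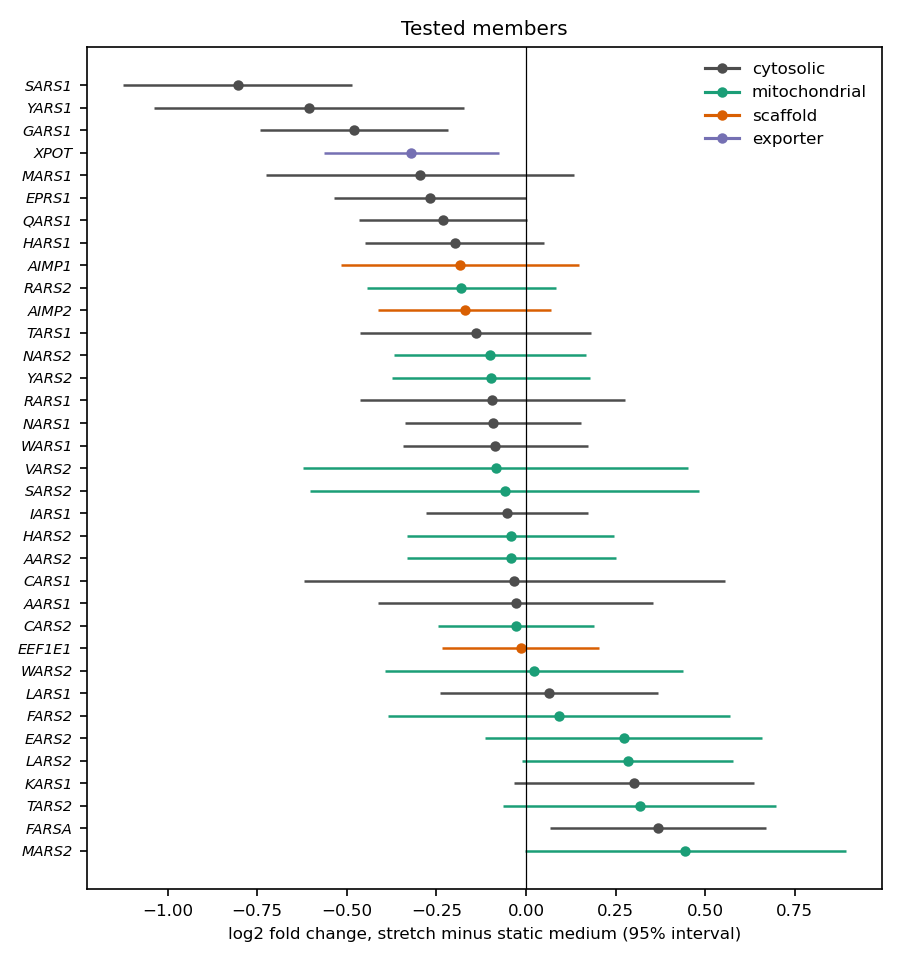
Log2 fold change of each of the 35 tested genes, stretch minus static medium, with its 95% interval from edgeR, coloured by class. SARS1 at -0.80 and MARS2 at 0.44 are the ends of the range, and the intervals of SARS1, YARS1, GARS1, XPOT, EPRS1 and FARSA leave out 0.

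SARS1, the cytosolic seryl-tRNA synthetase (ENSG00000031698, chromosome 1, 109213918 to 109238169), was at 89.0, 102.7, 73.9, 69.0 and 67.9 CPM in static 1, 3, 5, 7 and 9. It was at 45.03, 46.6, 33.2, 54.7 and 51.2 CPM in stretch 2, 4, 6, 8 and 10. Every static library was above every stretch library, and static 1 and 3 were the highest. The log2 fold change was -0.80 ± 0.15 (SE, n = 5 per group; interval -1.12 to -0.48), so that the static level was 1.75 times the stretch level. The adjusted p was 0.0840 in edgeR, 0.000975 in DESeq2 and 0.0889 in limma-voom. Without one library, edgeR's adjusted p ranged from 0.0496 (without stretch 4) to 0.217 (without stretch 2), and the estimate from -0.88 to -0.70. It passed 0.05 in edgeR only without stretch 4, where 0.352% of all genes passed, and it passed a threshold of 0.1 with all libraries, as did 0.556% of genes.

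GARS1, the glycyl-tRNA synthetase of both compartments (ENSG00000106105, chromosome 7, 30594681 to 30634033), was at 297.8, 247.4, 225.7, 244.5 and 263.3 CPM in static 1, 3, 5, 7 and 9. In stretch 2, 4, 6, 8 and 10 it was at 213.8, 166.5, 222.3, 153.1 and 161.6 CPM. The groups did not overlap, although static 5 and stretch 6 were close. The log2 fold change was -0.48 ± 0.12 (-0.74 to -0.22), with an adjusted p of 0.115 in edgeR and 0.0217 in DESeq2. SARS1 and GARS1 were the 2 of 35 genes whose stretch libraries all lay below the static ones, against 1.98% of all genes tested.

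YARS1, the cytosolic tyrosyl-tRNA synthetase (ENSG00000134684, chromosome 1, 32775237 to 32818153), was at 60.001, 56.2, 45.8, 94.6 and 39.9 CPM in the static libraries in the same order, and at 32.4, 46.8, 29.03, 46.0 and 41.0 CPM in the stretch libraries. Static 7 was far above the rest, and static 5 and 9 lay within the stretch range. The log2 fold change was -0.61 ± 0.20 (adjusted p = 0.168 in edgeR), and -0.37 without static 7 (adjusted p = 0.375 in edgeR). YARS1 overlaps S100PBP on the opposite strand, and the use of strand in counting is not given in the sources used here.

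XPOT, which exports tRNA from the nucleus (ENSG00000184575, chromosome 12, 64404350 to 64451127), was at 318.9, 299.2, 229.4, 293.0 and 258.1 CPM in static and 206.4, 271.9, 204.8, 218.8 and 218.8 CPM in stretch libraries. Stretch 4 lay among the static libraries, and the other 4 stretch libraries were below every static one. The log2 fold change was -0.32 ± 0.12 (adjusted p = 0.192 in edgeR). Its pseudogene XPOTP1 had 0 to 3 counts per library.

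EPRS1, whose single chain charges both glutamate and proline tRNA and sits in the multisynthetase complex (ENSG00000136628, chromosome 1, 219968601 to 220046658), was at 306.2, 291.7, 248.6, 353.6 and 255.7 CPM in static libraries. In stretch libraries it was at 184.4, 260.4, 265.7, 227.6 and 270.1 CPM, so the groups overlapped, with static 7 the highest and stretch 2 the lowest. The log2 fold change of -0.27 ± 0.13 had a 95% interval from -0.54 to -0.00070 and an adjusted p of 0.302 in edgeR. The unadjusted p of EPRS1 in edgeR was 0.0495. With 1 library left out it ran from 0.0285 (without static 5) to 0.145 (without static 7).

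FARSA, the catalytic subunit of the cytosolic phenylalanyl enzyme (ENSG00000179115, chromosome 19, 12922479 to 12934037), was the one gene with an unadjusted p under 0.05 that was higher with stretch medium in the fit of all libraries. Its p was 0.0505 without static 1, 0.0522 without static 7 and 0.0667 without stretch 6. The number of such higher genes was 0 without static 1 or stretch 6, 2 without static 5 or stretch 10 and 3 without static 3 or stretch 4. It was at 59.6, 75.2, 78.4, 53.8 and 69.8 CPM in static and 96.6, 66.4, 108.0, 85.9 and 77.4 CPM in stretch libraries. Stretch 4 and 10 lay within the static range and stretch 2, 6 and 8 above it. The log2 fold change was 0.37 ± 0.14 (0.066 to 0.67, adjusted p = 0.224 in edgeR).

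**Figure D2:**
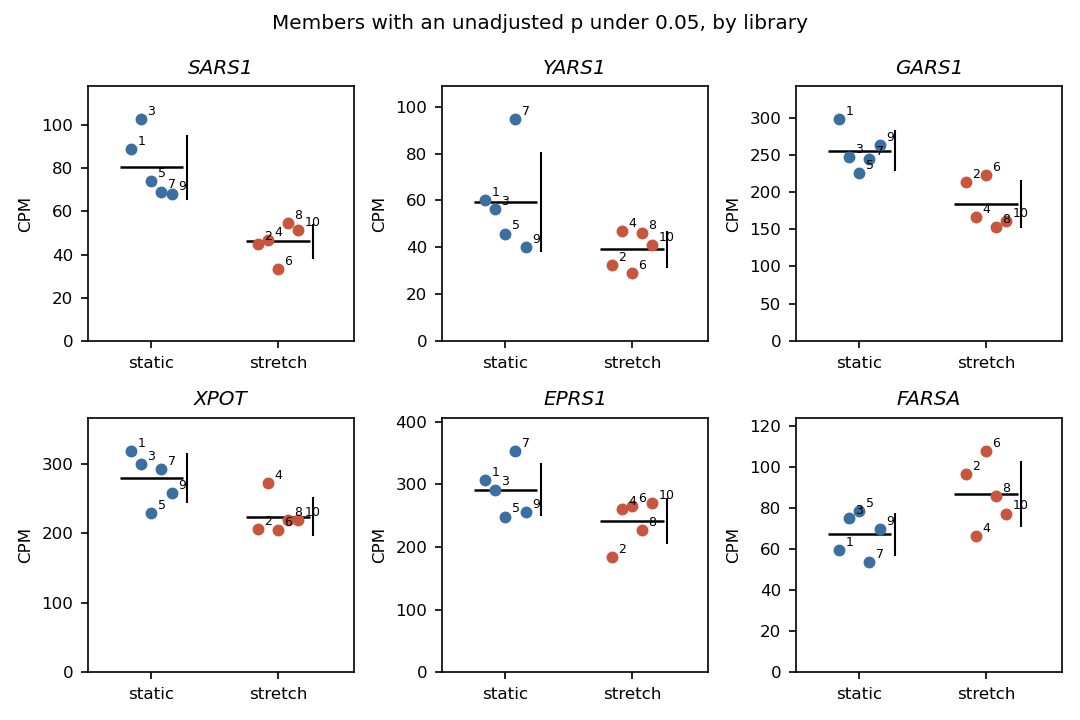
Level in CPM in each library, numbered as in the sample titles, for the 6 genes with an unadjusted p under 0.05 in edgeR; bars are the mean of 5 libraries and the vertical line its SD. The groups are apart for SARS1 and GARS1 and overlap for YARS1, XPOT, EPRS1 and FARSA.

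The other cytosolic synthetases had smaller differences or wide spreads. MARS1, which charges the initiator and elongator methionine tRNAs, had a log2 fold change of -0.30 ± 0.20 (adjusted p = 0.481 in edgeR). Its static libraries were spread widely, since static 1, 3 and 7 were at 359.3, 350.8 and 323.8 CPM and static 5 and 9 at 187.1 and 158.9 CPM, around stretch values of 171.5 to 269.2 CPM. MARS1 overlaps DDIT3 on the opposite strand, which was at 0.275 to 0.615 CPM. QARS1, of the complex (glutaminyl, -0.23 ± 0.11), and the free enzyme HARS1 (histidyl, -0.20 ± 0.12) had intervals that reached past 0. TARS1 (threonyl), RARS1 (arginyl), NARS1 (asparaginyl) and WARS1 (tryptophanyl, also an interferon-induced gene) lay between -0.14 and -0.086. IARS1 (isoleucyl), CARS1 (cysteinyl) and AARS1 (alanyl) lay between -0.053 and -0.028. LARS1, the leucyl enzyme that also senses leucine for mTORC1, was at 0.064 ± 0.14. KARS1, the lysyl enzyme of both compartments, was at 0.30 ± 0.16, with 66.6, 91.0, 53.8, 50.1 and 55.2 CPM in static and 81.2, 62.0, 86.0, 73.0 and 88.8 CPM in stretch libraries. Static 3 was the highest of its 10 values. AARS1 and CARS1 varied more within groups than between them: AARS1 ran from 132.8 to 251.0 CPM in static and from 125.7 to 235.1 CPM in stretch libraries, and CARS1 from 6.92 to 14.3 and from 4.43 to 14.3 CPM.

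Divided by the compartment and by what the proteins form, 14 of 17 cytosolic synthetases lay below 0 (median -0.095), with 4 lower and 1 higher at an unadjusted p under 0.05 (23.5% and 5.88%, against 8.37% and 8.08% of all genes). The 7 enzymes of the multisynthetase complex among these genes (EPRS1, IARS1, KARS1, LARS1, MARS1, QARS1 and RARS1) had 5 below 0 and a median of -0.095, and of the 10 outside it that were tested 9 lay below 0, with a median of -0.12. By catalytic fold, 7 of 8 class I and 6 of 8 class II enzymes were below 0 (medians -0.090 and -0.12), EPRS1 holding one of each. The difference between these subsets was not tested. The scaffold genes were at -0.18 ± 0.16 for AIMP1, -0.17 ± 0.11 for AIMP2 and -0.015 ± 0.10 for EEF1E1, each with an interval that spanned 0. AIMP2 was at 37.4 to 50.6 CPM in static and 37.1 to 41.8 CPM in stretch libraries. EEF1E1 was at 151.1 to 183.3 and 135.1 to 174.2 CPM, and a read-through gene of EEF1E1 and BLOC1S5 in the table shares its strand.

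A list named from general knowledge as induced through ATF4 when amino acids are short held 12 of the cytosolic synthetases and XPOT. All 13 were tested, 12 lay below 0, and the median was -0.14. At an unadjusted p under 0.05, 5 were lower and 0 higher (38.5%, against 8.37% lower among all genes). Of the 5 tested cytosolic synthetases outside that list (FARSA, HARS1, KARS1, QARS1 and RARS1), 3 lay below 0, with a median of -0.095. At an unadjusted p under 0.05, 0 were lower and 1 higher (0% and 20%, against 8.37% and 8.08% of all genes). With 5 genes, these counts cannot tell the set from all genes, and its difference from the list was not tested. The list was chosen with earlier results of these data known, so its counts describe these libraries and are not an independent test. Within the list, differences were uneven: SARS1, YARS1 and GARS1 were at -0.80 to -0.48, whereas AARS1, CARS1, IARS1, LARS1, NARS1 and WARS1 were at -0.092 to 0.064.

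The mitochondrial synthetases had a median log2 fold change of -0.034, with 8 of 14 tested genes below 0 and 0 at an unadjusted p under 0.05 in either direction. The sign of that median turned without static 9 (0.021), stretch 2 (0.00086), stretch 6 (0.0030) or stretch 10 (0.013). The lowest was RARS2 at -0.18 ± 0.12. The highest was MARS2, the methionyl enzyme, at 0.44 ± 0.21 (interval -0.0030 to 0.89, adjusted p = 0.305 in edgeR). MARS2 was at 4.62, 7.66, 9.84, 6.53 and 6.33 CPM in static and 11.8, 8.08, 11.97, 8.79 and 7.43 CPM in stretch libraries, so static 3 and 5 lay inside the stretch range. TARS2 (threonyl), LARS2 (leucyl) and EARS2 (glutamyl) followed, at 0.32 ± 0.18, 0.28 ± 0.14 and 0.27 ± 0.18. EARS2, which charges glutamate tRNA in mitochondria as EPRS1 does in the cytosol, was at 7.69, 8.25, 10.9, 12.5 and 8.44 CPM in static and 12.7, 8.47, 12.9, 10.98 and 13.1 CPM in stretch libraries, with overlap. LARS2, named after its values were seen, was at 19.3, 19.3, 17.8, 17.5 and 14.1 CPM in static and 25.6, 19.8, 20.6, 21.7 and 19.7 CPM in stretch libraries. Its groups did not overlap, by a narrow gap, and it was 1 of 35 genes with all stretch libraries higher (1.74% of all genes), with an adjusted p of 0.321 in edgeR.

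The other mitochondrial genes had small estimates on either side of 0. They were NARS2, YARS2, VARS2, SARS2, HARS2, AARS2, CARS2, WARS2 and FARS2, from -0.10 to 0.092. HARS2 and HARS1 overlap at their 5′ ends on opposite strands. VARS2 and FARS2 were at 1.81 to 4.06 and 2.42 to 4.82 CPM, and the interval of VARS2 ran from -0.62 to 0.45, wide beside the estimate of -0.085. PARS2, the prolyl enzyme, had 0 to 2 counts in every library, at or below the floor of 3 counts, and was not tested.

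Set beside its mitochondrial partner, the seryl enzyme showed the widest separation between compartments. SARS2 was at 5.27, 6.13, 7.99, 5.48 and 9.90 CPM in static and 7.24, 10.6, 3.85, 5.94 and 6.23 CPM in stretch libraries, a log2 fold change of -0.059 ± 0.26 against -0.80 for SARS1. The difference of log2 CPM, SARS1 minus SARS2, averaged 3.49 ± 0.55 in static and 2.76 ± 0.42 in stretch libraries (SD over 5 libraries). The 2 groups of this difference overlapped, since static 9 was at 2.74. YARS2 was at 38.2, 27.5, 40.1, 33.9 and 36.4 CPM in static and 36.2, 36.0, 29.2, 33.0 and 30.1 CPM in stretch libraries, a log2 fold change of -0.098 ± 0.13 against -0.61 for YARS1. Of the 11 pairs with both partners tested, 8 had a lower cytosolic to mitochondrial ratio with stretch medium, and the median of the difference was -0.17. In 0 of the 11 did the groups separate. MARS1 and MARS2 differed by -0.69, SARS1 and SARS2 by -0.73, and TARS1 and TARS2 by -0.49, while NARS1 and NARS2 differed by 0.0041. These differences were not tested.

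**Figure D3:**
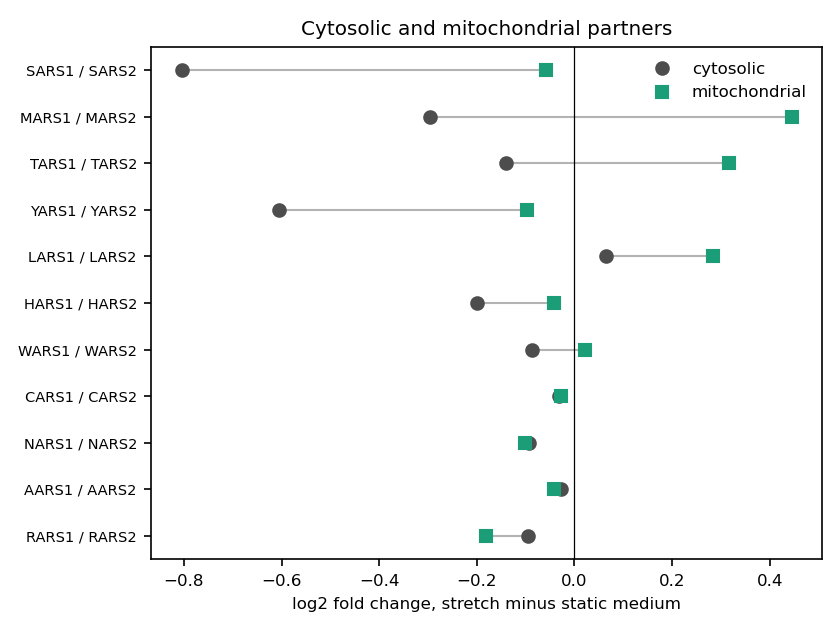
Log2 fold changes, stretch minus static medium, of 11 cytosolic synthetases (circles) and their mitochondrial partners (squares), ordered by the difference of log2 CPM between partners. The cytosolic symbol lies to the left of the mitochondrial one by the widest margin for SARS1 and MARS1, and the symbols nearly coincide for CARS1, NARS1 and AARS1.

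Single libraries set much of the spread. The log2 CPM of the 12 cytosolic synthetases listed as ATF4-induced was centred on each gene's mean over 10 libraries and averaged. This mean was 0.34, 0.31, -0.089, 0.14 and -0.12 in static 1, 3, 5, 7 and 9. It was -0.062, -0.26, -0.022, -0.16 and -0.074 in stretch 2, 4, 6, 8 and 10. Static 1, 3 and 7 were above all stretch libraries, and static 5 and 9 lay inside the stretch range. Of the 17 cytosolic synthetases, 14 had their highest value in a static library, 13 of these in static 1, 3 or 7, and 13 had their lowest in a stretch library. The other cytosolic synthetases averaged -0.057 to 0.076 with static and -0.075 to 0.078 with stretch medium. The mitochondrial synthetases averaged -0.20 to 0.062 and -0.075 to 0.10, with static 1 the lowest.

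The same libraries stood out for a list of 22 genes of the amino acid response, such as the serine synthesis enzyme PSAT1. Its 21 tested genes averaged 0.573, 0.690, -0.106, 0.266 and -0.098 in static 1, 3, 5, 7 and 9, against -0.487 to -0.107 in stretch libraries. Every static library was thus above every stretch library, static 5 and 9 by a narrow margin over stretch 6. The part of these static libraries in the synthetase differences was not tested beyond leaving out one library at a time. In that list 18 of 21 lay below 0 (median -0.44), and 9 were lower and 0 higher at an unadjusted p under 0.05 in edgeR (42.9% and 0%, against 8.37% and 8.08% of all genes). In DESeq2, 4 were called lower (1.55% of genes with an adjusted p there were): ASNS, PSAT1, PSPH and CHAC1, of which ASNS makes asparagine and PSPH serine. The 3 smallest p-values of the list belonged to the transcription factor CEBPB (-2.04 ± 0.40), PSAT1 (-1.32 ± 0.28) and the cystathionine lyase CTH (-1.39 ± 0.30), each with an adjusted p of at least 0.0840 in edgeR. CEBPB and CTH rest on few counts. CEBPB averaged 4.77 CPM in static and 1.13 CPM in stretch libraries, and its lowest value, 0.226 CPM, was below the floor of 3 counts. CTH averaged 3.70 and 1.44 CPM, with a lowest value of 0.646 CPM.

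**Figure D4:**
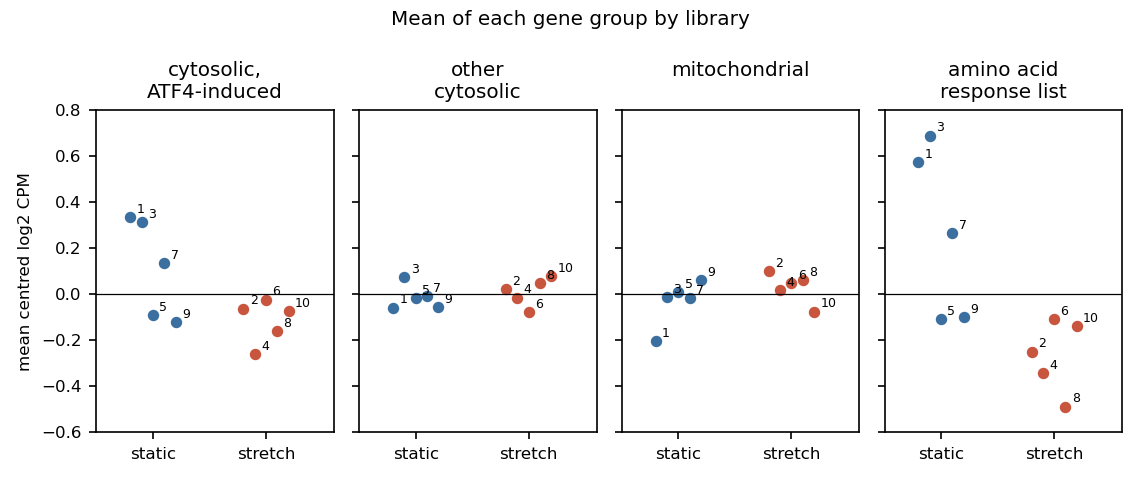
Mean log2 CPM of 4 gene groups in each library, numbered as in the sample titles and centred on each gene's mean over 10 libraries. Static 1, 3 and 7 are high in the cytosolic synthetases listed from general knowledge as ATF4-induced and in the amino acid response list. Static 5 and 9 lie near the stretch libraries in both.

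**Figure D5:**
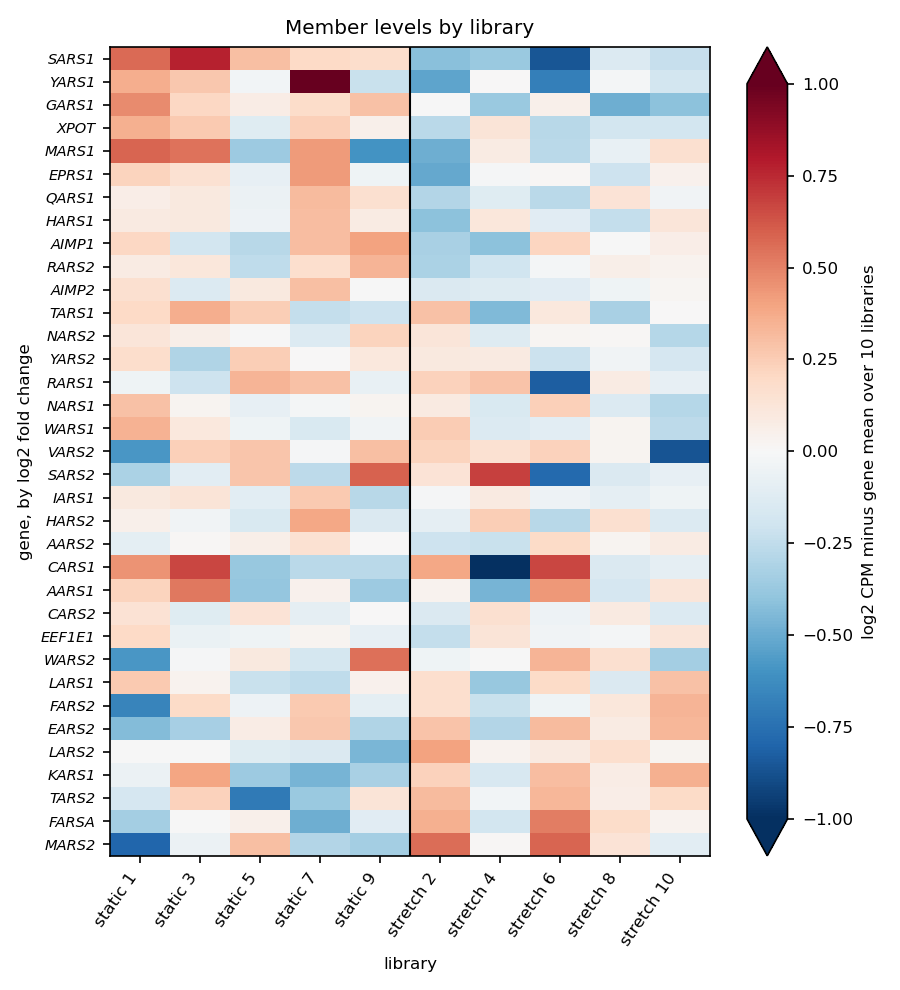
Log2 CPM of the 35 tested genes in 10 libraries minus each gene's mean, with genes ordered by log2 fold change from SARS1 to MARS2 and colours limited to 1 on either side of 0. SARS1 and GARS1 are above their mean in all 5 static libraries, and CARS1 and AARS1 lie on both sides of their mean within both groups.

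Genes around tRNA charging were read from lists by role. Of 9 tested genes of other aminoacylation steps, 6 lay below 0 (median -0.060), with 1 lower and 0 higher at an unadjusted p under 0.05. The 1 of 9 is 11.1%, near the 8.37% lower among all genes. It was DTD1, a deacylase that removes D-amino acids from tRNA, at -0.48 ± 0.16. Of 5 genes of the GCN2 pathway, from the kinase to ATF4, 4 lay below 0 (median -0.21). At an unadjusted p under 0.05 in edgeR, 1 was lower and 0 higher (20% and 0%, against 8.37% and 8.08% of all genes). With 5 genes, these counts cannot tell the list from all genes. The lower one was the GCN2 inhibitor IMPACT at -0.38 ± 0.17 (adjusted p = 0.279 in edgeR). The kinase gene EIF2AK4, which encodes GCN2, was at -0.21 ± 0.097 (adjusted p = 0.305 in edgeR). ATF4 itself was at -0.28 ± 0.15 (adjusted p = 0.365 in edgeR) and GCN1 at 0.10 ± 0.14.

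Of 22 genes of RNA polymerase III, its factors and its repressor MAF1, 17 had a log2 fold change above 0 (50.1% of all genes did), with a median of 0.17, and 5 were higher and 1 lower at an unadjusted p under 0.05 (22.7% and 4.55%, against 8.08% and 8.37% of all genes). MAF1, one of the 5 higher genes, averaged 197 ± 30.9 CPM in static and 261 ± 28.9 CPM in stretch libraries (SD over 5 libraries), or 0.41 ± 0.12 (adjusted p = 0.139 in edgeR). GTF3C2, a subunit of TFIIIC, was at 0.50 ± 0.16, and the polymerase subunit POLR3B at 0.58 ± 0.22. Of 24 tRNA processing genes, 13 lay above 0 (median 0.00063), with 3 higher and 1 lower at an unadjusted p under 0.05. These are 12.5% and 4.17%, against 8.08% and 8.37% of all genes. ELAC2, which trims the 3′ end of tRNA precursors, was at 63.1 ± 12.1 and 90.8 ± 5.75 CPM, or 0.53 ± 0.13 (adjusted p = 0.109 in edgeR). The RNase P and MRP subunit POP1 was at 0.53 ± 0.14, and TPRKB, of the KEOPS complex that modifies tRNA, at -0.59 ± 0.20. None of these genes passed the adjusted threshold in edgeR. DESeq2 called MAF1 (adjusted p = 0.0496) and ELAC2 (adjusted p = 0.0129) higher, 1 of each list, against 1.29% of genes with an adjusted p there.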

How the data were processed

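Per the labels' protocols, Trizol was used for RNA extraction, and an Ion AmpliSeq whole-transcriptome kit, which amplifies short targets by PCR, for the libraries. Per the submitters' processing notes, fastp 0.20.1, Salmon 1.9 and hg38/GRCh38 were used. Which tool did which step, and the annotation, is not given in the sources used here. In 1 table the authors deposited whole-number counts per Ensembl gene for 10 libraries. A column's number named its sample by the same number in the title.

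The test was run with edgeR 4.0.16 under R 4.3.3 (filterByExpr with a minimum count of 10 and total of 15, TMM, quasi-likelihood test, Benjamini-Hochberg adjustment over 10968 genes, threshold 0.05), and checked on simulated data. Log2 CPM use a prior count of 2. Alternatives were DESeq2 1.42.0, limma-voom (limma 3.58.1), other scalings and filters, and each library left out. The labels do not tell separate cultures from repeat preparations, and p-values therefore cover only the spread among these libraries, which may be technical. AmpliSeq reads carry no stated molecular identifiers, so the count floor covers counting error only. The genes and lists were chosen with earlier results of these data known. Full values go to genes with an unadjusted p under 0.05 and their partners, and up to 3 genes per list are named by smallest p; others were named after their values were seen. Positions are from GENCODE 29 (GRCh38). Of the 46 promoter windows, 40 matched a GENCODE transcript in the forward sense and 0 in reverse.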

Additional observations from a re-analysis of the deposited data

Results flagged for a closer look

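In groups of 5 libraries, a value was picked out when its gap to the nearest other library exceeded 0.71 of the range. Among the 35 tested genes in 2 groups each, 70 sets of 5, this took 3 values, where chance picks out about 1 in 20. NARS1 in static 1 was at 199.8 CPM against 154.4 to 166.7 CPM in the other static libraries. XPOT in stretch 4 was at 271.9 CPM against 204.8 to 218.8 CPM in the other stretch libraries. VARS2 in stretch 10 was at 1.81 CPM against 3.36 to 3.85 CPM, a gap that rests on few counts (9 in that library).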

How the results depend on the processing

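No paired analysis was run, because the groups share no title number and the labels give no batch. Whether neighbouring numbers, such as static 1 and stretch 2, form pairs is not given in the sources used here. Of 10968 genes, 0 passed in edgeR, 61 in edgeR at a threshold of 0.1, and 1 in limma-voom. In DESeq2 275 passed, of 9690 genes with an adjusted p. With a library left out, 0 to 39 passed in edgeR. These were 39 of 11070 without stretch 4, 2 of 11034 without stretch 6 and 1 of 11081 without stretch 10. Of the cytosolic synthetases, 2 were called in DESeq2 (SARS1 and GARS1), 1 at a threshold of 0.1 (SARS1) and 0 to 1 with a library left out (SARS1, without stretch 4). No mitochondrial, scaffold or export gene was called under any of the 18 alternatives. The mitochondrial median of -0.034 lay between -0.055 and 0.021 in the fits without one library, so its sign is not settled; the cytosolic median ranged from -0.18 to -0.078 and that of the scaffold genes with XPOT from -0.24 to -0.12. The 6 genes with an unadjusted p under 0.05 kept their direction in each alternative that gave a value. PARS2 had too few counts to be tested, and VARS2 rested on 9 to 33 counts per library.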
